A study of Mus musculus with 10 samples.

Results

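The interferon gamma-induced GTPases examined here were 10 genes of 2 families, taken by gene name from the 24391 gene names counted in mouse hippocampus. The guanylate-binding proteins (GBPs) were Gbp2, Gbp3, Gbp5, Gbp6 and Gbp7, and the immunity-related GTPases (IRGs) were Igtp, Iigp1, Irgm1, Irgm2 and Tgtp2. RNA was sequenced from bilateral whole hippocampi of 10 male mice aged 10 to 14 weeks, of a strain the methods spell C56BL/6J, with 1 library per mouse, at day 4 after surgery. The 4 mice with subarachnoid hemorrhage (SAH) had the circle of Willis, the arterial ring at the base of the brain, perforated on 1 side with a filament under isoflurane, and the study kept only SAH mice in which cerebral blood flow fell sharply at perforation. In the 3 Sham mice the filament was advanced without puncture, and the 3 Naive mice had no operation. The labels give no drug treatment and no engineered allele for any group. Isoflurane is described for the operation only, so surgery and anesthesia cannot be told apart in comparisons with Naive mice. Sham and Naive mice were first combined as 6 control mice, and each of these groups was then compared with SAH by itself.

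The 10 genes lay on 4 chromosomes. In mm9 coordinates, Gbp5, Gbp7, Gbp3 and Gbp2 followed each other on the + strand of chromosome 3 within 141 kb, from 142159898 to 142300972, and Gbp6 lay on the − strand of chromosome 5 (105699721 to 105722718). Igtp (58013058 to 58021094) and Irgm2 (58028479 to 58036285) were neighbours on the + strand of chromosome 11. Irgm1 (48678751 to 48684848) and Tgtp2 (48798831 to 48877714) lay on the − strand of the same chromosome. Iigp1 lay on the + strand of chromosome 18 (60535683 to 60552283).

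Interferon gamma binds a receptor that works through the kinases Jak1 and Jak2. Genes of the pathway carry gamma-activated sites in their DNA, or interferon-stimulated response elements, which are bound by the transcription factor Irf1. GBPs and IRGs are among the genes most strongly raised by this pathway. GBPs are large, dynamin-like GTPases that assemble on the vacuoles of intracellular microbes and on microbes in the cytosol, while IRGs are smaller GTPases that split into regulators kept on the cell's own membranes (Irgm1, Irgm2, Igtp) and effectors that load onto pathogen vacuoles (Iigp1, Tgtp2). In brain they are known as interferon-response genes of microglia, astrocytes and endothelium.

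The promoters are shown because both binding sequences of the pathway can be read in them. RefSeq windows (GRCm38.p6) from 250 bases before to 50 bases after the start of the gene were given for 8 of the 10 members. Each matched its own chromosome in mm9 once in the orientation of the gene. Other chromosomes and the opposite orientation were not searched. Gbp6 and Iigp1 were not among them. The searched letters were GAAA, any 2 bases and GAAA again, the core of the interferon-stimulated response element, and TTCNNNGAA, the gamma-activated site, each on both strands. In the lines that follow, capitals mark a match to either one, and each sequence reads 5′ to 3′ in the direction of the gene. The mm9 positions are chr3:142283548-142283597 for Gbp2, chr3:142222943-142222998 for Gbp3, chr3:142159713-142159762 for Gbp5 and chr3:142193227-142193276 for Gbp7, all on the + strand. Irgm1 is at chr11:48684923-48684972 and Tgtp2 at chr11:48877755-48877804, both on the − strand.
Gbp2: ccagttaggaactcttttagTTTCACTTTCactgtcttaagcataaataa
Gbp3: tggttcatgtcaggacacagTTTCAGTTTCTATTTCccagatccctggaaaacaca
Gbp5: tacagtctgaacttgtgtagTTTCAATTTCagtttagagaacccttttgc
Gbp7: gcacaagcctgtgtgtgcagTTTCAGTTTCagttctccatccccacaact
Irgm1: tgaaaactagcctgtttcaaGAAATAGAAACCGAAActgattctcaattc
Tgtp2: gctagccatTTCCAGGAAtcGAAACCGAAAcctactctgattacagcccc

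The neighbours Igtp and Irgm2 are shown over the 150 bases before their start, because their promoters were nearly alike while their calls differed. They lie at chr11:58012908-58013057 and chr11:58028329-58028478 on the + strand of mm9.
Igtp: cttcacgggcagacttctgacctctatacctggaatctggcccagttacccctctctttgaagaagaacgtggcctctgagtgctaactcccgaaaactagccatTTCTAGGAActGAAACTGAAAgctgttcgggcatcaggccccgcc
Irgm2: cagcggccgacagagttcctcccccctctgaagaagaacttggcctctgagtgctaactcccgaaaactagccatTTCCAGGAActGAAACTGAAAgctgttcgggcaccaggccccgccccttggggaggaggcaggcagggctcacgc

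The response element core stood in 8 of 8 member promoters, against 3.99% of the 27025 genes with a window. It read on the strand opposite to the gene in the 4 GBPs (TTTC repeats in the lines shown) and on the strand of the gene in the 4 IRGs. Gbp3 and Irgm1 each held 2 overlapping matches, which share a GAAA block. Gbp3 had 2 RefSeq starts, and only the window of the first held the motif. The gamma-activated site stood in 5 of 8 promoters, those of Gbp5, Gbp7, Igtp, Irgm2 and Tgtp2, against 9.55% of all genes, and both sequences in the same 5, against 0.540% of all genes. In Igtp, Irgm2 and Tgtp2 the gamma-activated site ended 2 bases before the response element core, whereas 25 bases lay between the nearest pair in Gbp7. The aligned windows of Igtp and Irgm2 were identical at 82.3% of 300 bases, and the next closest pair, Igtp and Irgm1, at 62.7%. These members are known interferon targets, so the matches describe them and are no test, and a match does not show that a factor was bound.

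**Figure D1:**
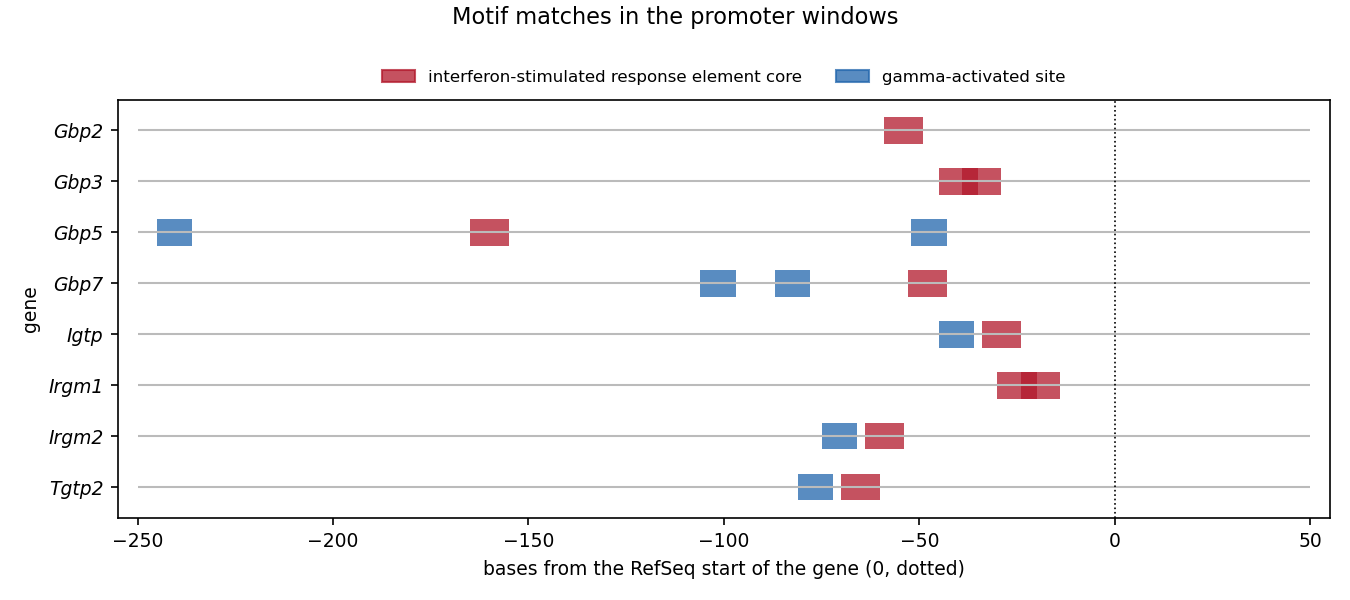
Each line is the promoter window of 1 gene, from 250 bases before to 50 bases after its RefSeq start (horizontal axis, in bases). Red boxes mark the response element core, found in 8 of 8 windows, with darker red where 2 matches overlap, and blue boxes mark the gamma-activated site, found in 5 of 8.

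Between 19743388 and 27254655 counts were available per mouse, and every pair of libraries differed by more than sampling noise. Levels are given as CPM, counts scaled by library size after TMM normalization. Neuron markers identified the tissue, with Prox1, of dentate granule cells, at 1174 to 1800 counts in every mouse, and 0 of 7 neuron markers differed between SAH and control (edgeR, 0 at an unadjusted p under 0.05, DESeq2 0). SAH mice 3 and 4 and Sham mouse 7 stood apart in choroid plexus genes, with 18400 to 21971 counts of Ttr, made by choroid plexus epithelium, against 331 to 4691 in the other 7 mice. Results are therefore also given without these 3 mice.

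Of the 10 members, 9 passed the filter on low counts and 8 of these were higher in SAH than in control at an adjusted p under 0.10 (edgeR's quasi-likelihood test with Benjamini-Hochberg adjustment over 14993 genes). Over all tested genes 3.13% were called higher and 1.54% lower. The median log2 fold change of the 9 members was 0.76, from 0.50 to 1.08, against −0.0024 over all tested genes, for which the 5th to the 95th percentile ran from −0.26 to 0.47. In 5 members, Gbp3, Gbp6, Gbp7, Igtp and Irgm1, the lowest SAH mouse exceeded the highest control mouse, as in 2.83% of tested genes. Neighbouring members of a cluster are not independent, and members are not replicates of a condition. In bulk tissue, more cells of a type and more RNA per cell cannot be told apart.

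**Figure D2:**
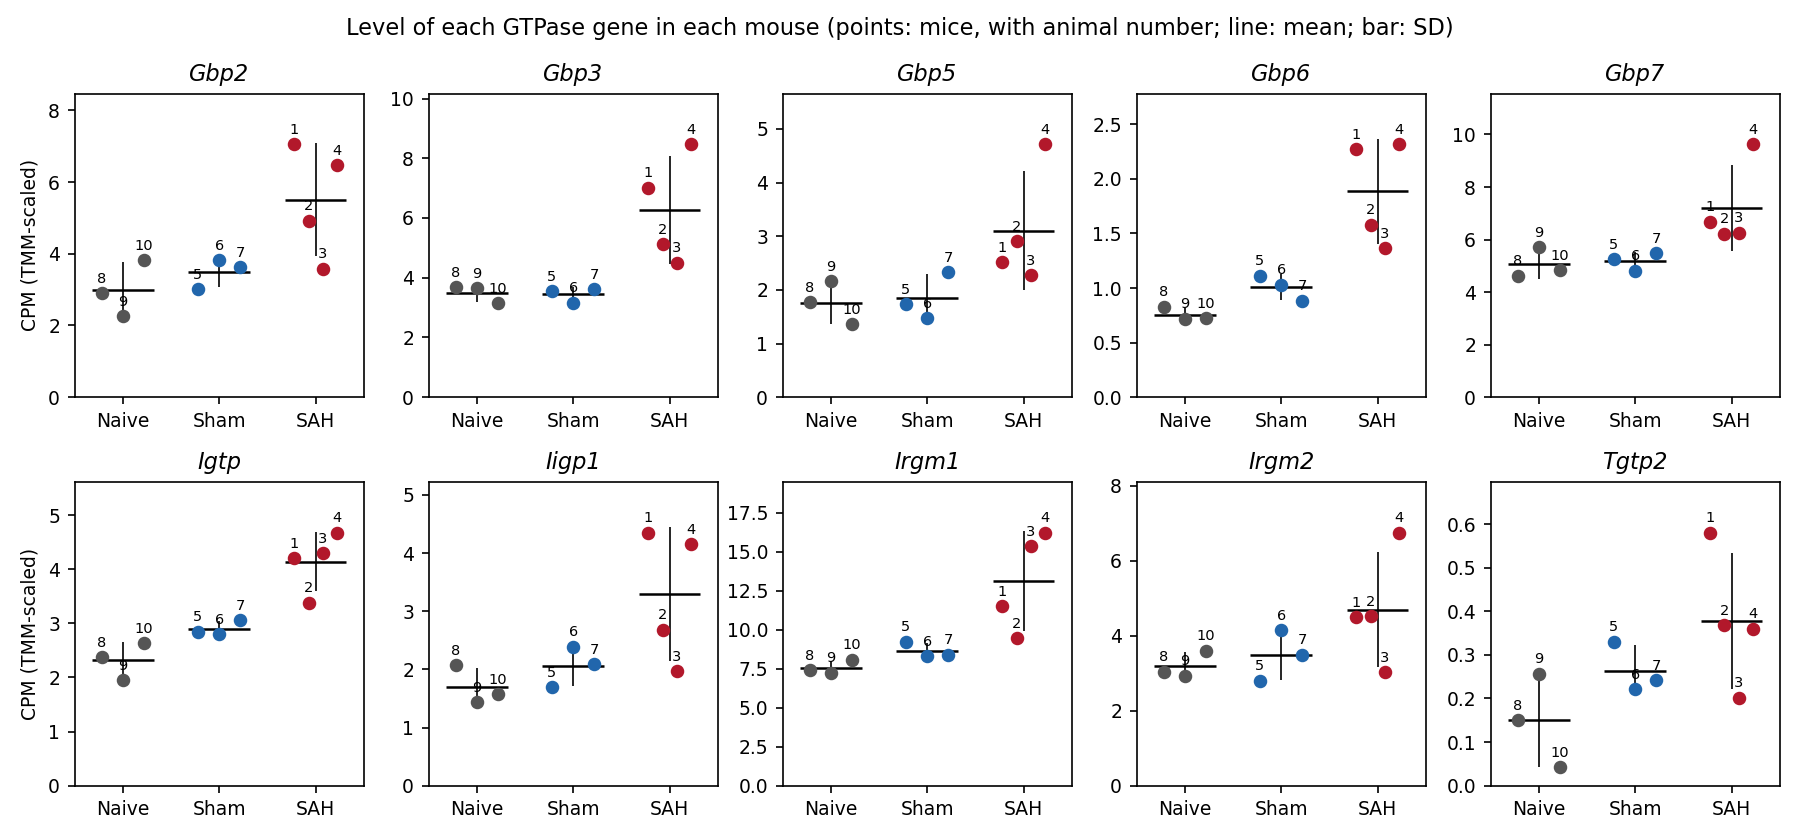
Each panel shows 1 gene, with CPM after TMM scaling on the vertical axis (starting at 0, its own scale per panel) and the groups on the horizontal axis. Points are mice with their animal number, lines are means and bars are ± 1 SD (n = 3 Naive, 3 Sham, 4 SAH). SAH mice 1 and 4 were mostly at the top, and in Irgm1 SAH mouse 3, at 15.4 CPM, stood with mouse 4, at 16.2 CPM.

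Among the GBPs, Gbp3, a member of the chromosome 3 cluster, had the smallest spread among control mice relative to its rise. SAH mice 1 to 4 had 7.01, 5.11, 4.50 and 8.47 CPM of Gbp3. The Sham mice had 3.55, 3.16 and 3.62 CPM and the Naive mice 3.69, 3.65 and 3.14 CPM. The lowest SAH mouse was above the highest control mouse, and Sham and Naive mice were intermixed. Gbp3 was 1.81-fold higher in SAH, a log2 fold change of 0.86 with a standard error of 0.16 (edgeR adjusted p = 0.0107).

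Gbp6, encoded apart from the others on chromosome 5, showed the largest fold change of the 9. Its SAH values were 2.27, 1.58, 1.36 and 2.32 CPM, from 27 to 58 counts. Sham mice had 1.11, 1.03 and 0.885 CPM and Naive mice 0.827, 0.720 and 0.722 CPM, so that the 3 groups did not overlap at any point. The fold was 2.12 (log2 fold change 1.08, standard error 0.20, edgeR adjusted p = 0.0121). Of the 50-base windows of the Gbp6 exons, 14.6% occurred once in mm9. Reads that aligned to several places were left out by the authors. Where the read pairs of Gbp6 fell along the gene was not tested, and its level is uncertain for that reason.

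Gbp2 carries a lipid anchor and is recruited to pathogen vacuoles. It had 7.06, 4.93, 3.59 and 6.48 CPM in SAH mice 1 to 4. In Sham mice it had 3.01, 3.82 and 3.62 CPM, and in Naive mice 2.90, 2.26 and 3.82 CPM. SAH mouse 3 lay within the range of control mice and the other 3 above it. The SAH mean was 5.51 CPM (SD 1.57, n = 4) and the control mean 3.24 CPM (SD 0.624, n = 6), 1.69-fold apart on the fitted scale (log2 fold change 0.76, standard error 0.19, edgeR adjusted p = 0.0501).

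Gbp5, also lipid-anchored and known for promoting assembly of the NLRP3 inflammasome, was among the less abundant GBPs. The SAH mice had 2.51, 2.91, 2.27 and 4.72 CPM, the Sham mice 1.73, 1.47 and 2.33 CPM, and the Naive mice 1.77, 2.16 and 1.36 CPM. SAH mouse 4 was well above the rest, while SAH mouse 3 fell just under Sham mouse 7. Its log2 fold change was 0.80 with a standard error of 0.22 (edgeR adjusted p = 0.0724).

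Gbp7, known for a part in oxidative defence of macrophages, had the most CPM of the GBPs and the smallest fold change among the called members. It stood at 6.67, 6.22, 6.26 and 9.63 CPM in SAH, at 5.24, 4.82 and 5.47 CPM in Sham and at 4.63, 5.71 and 4.84 CPM in Naive mice. SAH mice 1 to 3 were close together just above control, and mouse 4 was far above them. The log2 fold change was 0.50 (standard error 0.13, edgeR adjusted p = 0.0617).

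Of the regulatory IRGs, Irgm1, which acts in autophagy and keeps effector IRGs off the cell's own membranes, was the most abundant member. Counts of 238, 257, 304 and 406 in SAH mice 1 to 4 gave 11.5, 9.45, 15.4 and 16.2 CPM. The Sham mice had 9.24, 8.31 and 8.41 CPM and the Naive mice 7.41, 7.25 and 8.06 CPM. SAH mouse 3, lowest of the SAH mice for 7 of the 10 members, was second highest here, and mouse 2 was only just above the highest Sham mouse. Irgm1 was 1.61-fold higher in SAH (log2 fold change 0.69, standard error 0.14, edgeR adjusted p = 0.0149). Without the 3 mice high in choroid plexus genes its log2 fold change was 0.37 and the call was lost (edgeR adjusted p = 0.180).

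Igtp, another regulator, found on endoplasmic reticulum and lipid droplets, varied least among SAH mice. It had 4.21, 3.38, 4.29 and 4.68 CPM in SAH, 2.85, 2.79 and 3.06 CPM in Sham and 2.37, 1.95 and 2.63 CPM in Naive mice. The groups followed each other without overlap, with Sham between Naive and SAH. The SAH difference was 0.66 on the log2 scale with a standard error of 0.14 (edgeR adjusted p = 0.0245).

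Irgm2, the third regulator, was the tested member that was not called. SAH mice had 4.50, 4.52, 3.03 and 6.76 CPM, Sham mice 2.81, 4.15 and 3.50 CPM, and Naive mice 3.05, 2.93 and 3.61 CPM. SAH mouse 3 lay among the control mice, and Sham mouse 6 came close to SAH mice 1 and 2. The log2 fold change of 0.50 had a 95% interval from 0.095 to 0.90 (edgeR adjusted p = 0.192). Its point estimate was close to that of Gbp7, which was called, and its standard error of 0.19 was larger. Whether Irgm2 and its neighbour Igtp differ in fold change was not tested.

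Among the effectors, Iigp1, which loads onto the vacuole membrane, separated SAH mice 1 and 4 from the rest. The SAH values were 4.35, 2.68, 1.97 and 4.16 CPM, those of Sham mice 1.69, 2.39 and 2.09 CPM and those of Naive mice 2.07, 1.44 and 1.57 CPM. SAH mouse 3 was again inside the control range. The log2 fold change was 0.80 with a standard error of 0.22 (edgeR adjusted p = 0.0736).

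Tgtp2, the other effector, was near the floor. Counts were 12, 10, 4 and 9 in SAH, 8, 6 and 6 in Sham and 4, 5 and 1 in Naive mice, a mean of 0.378 CPM (SD 0.155, n = 4) in SAH against 0.207 CPM (SD 0.0993, n = 6) in control. The filter on low counts kept it out of the fit. Mean log2 CPM was 0.69 higher in SAH, with p = 0.0952 in a 2-sided exact permutation test, which with 210 ways to split the mice can give no p below 0.00476. Only 9.62% of its 50-base exon windows occurred once in mm9, and 49.9% of its exon bases were shared with Tgtp1, a near copy that had 0 counts in every mouse. Counting left out reads that fell on more than 1 gene, so this low level does not measure the expression of the pair.

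**Figure D3:**
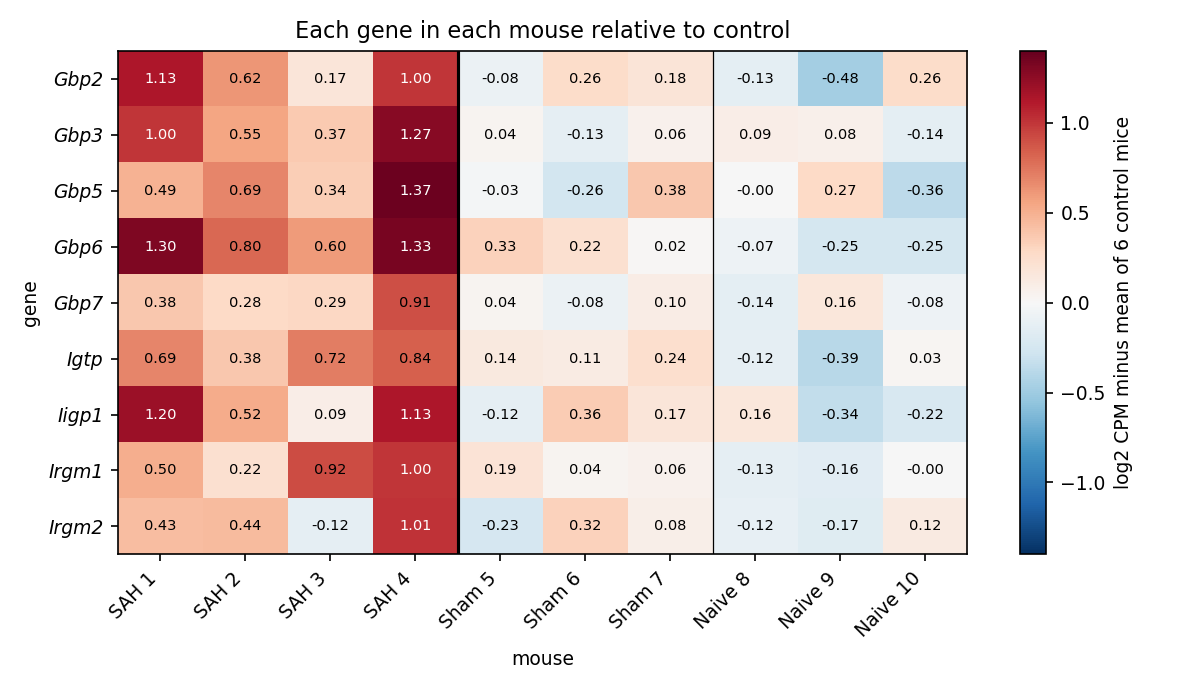
Rows are the 9 tested genes and columns the 10 mice, with the log2 CPM of each mouse minus the mean of the 6 control mice written in each cell and shown by color (red above, blue below). SAH mouse 4 was at 0.84 or more for each gene, and SAH mouse 3 ranged from −0.12 for Irgm2 to 0.92 for Irgm1.

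The SAH mice differed among themselves in the height of the response. Averaged over the 9 tested members, log2 CPM was 0.79, 0.50, 0.37 and 1.10 above the control mean in SAH mice 1 to 4. The Sham mice stood at 0.03, 0.09 and 0.14, and the Naive mice at −0.05, −0.14 and −0.07. All 4 SAH mice were above all control mice in this average. SAH mouse 4 was highest for 7 members and mouse 1 for the other 3, Gbp2, Iigp1 and Tgtp2. SAH mouse 3 was lowest for 7, and mouse 2 for Gbp7, Igtp and Irgm1. The makeup of the response also differed: Irgm1 gave 35.8% of the summed CPM of the members in SAH mouse 3, and 22.7% to 29.3% in the other 9 mice. Irgm1 exceeded Gbp2 by 4.28 times in that mouse and by 1.63 to 3.20 times in the others.

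Calls rested in part on single mice. Gbp3, Gbp6 and Irgm1 were called with any 1 of the 10 mice left out. Igtp lost its call without SAH mouse 4 (edgeR adjusted p = 0.101), and Gbp2 without SAH mouse 1, SAH mouse 4 or Naive mouse 8, where the largest edgeR adjusted p was 0.166. Gbp7 was called in 5 of the 10 fits, with loss without SAH 4, Sham 5, Sham 6, Naive 8 or Naive 10. Gbp5 was called in 4 of the 10, with loss without SAH 4, Sham 5, Sham 6 or any Naive mouse. Iigp1 was also called in 4, with loss without SAH 1, SAH 4, Sham 5 or any Naive mouse. Irgm2 gained a call without SAH mouse 3, with a log2 fold change of 0.65 (edgeR adjusted p = 0.0466), and was at 0.27 without SAH mouse 4 (edgeR adjusted p = 0.437). Thus 3 members were called without SAH mouse 4, whose removal also brought the log2 fold change of Gbp5 to 0.52 and of Gbp7 to 0.32, and 9 without SAH mouse 3. Over all genes, 470 were called higher with all mice, 223 without SAH mouse 4 and 416 without SAH mouse 3. Without the 3 mice high in choroid plexus genes 257 genes were called higher and 4 members among them, Gbp2, Gbp3, Gbp6 and Iigp1, with log2 fold changes of 0.90, 0.81, 1.09 and 0.90.

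Against Sham mice alone, the comparison that isolates the perforation from the operation, 0 of 9 members were called (edgeR), where 0.547% of tested genes were called higher. At an unadjusted p under 0.05, 8 of 9 were higher, against 5.8% of tested genes, and DESeq2 called 2, Gbp3 and Irgm1, with 1.48% of tested genes called higher by that tool. The log2 fold changes lay between 0.44 for Irgm2 and 0.90 for Gbp6. Gbp3 came closest, with 0.87 and a 95% interval from 0.43 to 1.30 (edgeR adjusted p = 0.106). Gbp3, Gbp6, Gbp7, Igtp and Irgm1 had every SAH mouse above every Sham mouse, as did 5.0% of tested genes. Leaving out SAH mouse 3 gave 3 called members and leaving out SAH mouse 2 gave 2, in fits that called 166 and 156 genes higher against 82 with all mice. Some of these fold changes rested on single mice. Without SAH mouse 4 the log2 fold change of Irgm2 was 0.21, that of Gbp7 went from 0.48 to 0.30 and that of Gbp5 from 0.76 to 0.48. Irgm1 went from 0.60 to 0.25 without the 3 mice high in choroid plexus genes (edgeR adjusted p = 0.828).

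Against Naive mice alone, 5 of 9 members were called higher, Gbp2, Gbp3, Gbp6, Igtp and Irgm1, against 1.99% of tested genes. DESeq2 called 7, adding Gbp7 and Iigp1, and called 3.05% of tested genes higher. For Gbp6 the log2 fold change was 1.31 (standard error 0.25, edgeR adjusted p = 0.0206) and Igtp one of 0.83 (standard error 0.16, edgeR adjusted p = 0.0232). Gbp3 stood at 0.85 (edgeR adjusted p = 0.0614), Irgm1 at 0.79 (edgeR adjusted p = 0.0333) and Gbp2 at 0.87 (edgeR adjusted p = 0.0956). The count rested on single mice: it was 0 without Naive mouse 8 or Naive mouse 9, 3 without SAH mouse 4 and 8 without SAH mouse 3. The genes called higher in those fits were 88, 107, 198 and 334, against 298 with all mice. Without SAH mouse 4 Gbp7, not called here, went from 0.52 to 0.34 and Irgm2, also not called, from 0.56 to 0.34. Without the 3 mice high in choroid plexus genes it was again 5, with Igtp lost (edgeR adjusted p = 0.105) and Iigp1 gained (edgeR adjusted p = 0.0743), among 280 genes called higher. Irgm1 kept its call in that fit with a smaller log2 fold change of 0.46 (edgeR adjusted p = 0.0813).

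Between Sham and Naive mice, the difference made by the operation without perforation, 0 of 9 members were called by edgeR or by DESeq2, and 0 had an unadjusted p under 0.05, against 2.0% of tested genes. In all, 0.00667% of tested genes were called higher. Gbp6 had the largest difference, 0.41 on the log2 scale with a 95% interval from −0.19 to 1.01, followed by Igtp with 0.31 (−0.060 to 0.69). In Gbp6, Igtp and Irgm1 every Sham mouse was above every Naive mouse, as it was for 4.83% of tested genes. Gbp3 was at −0.02, from −0.50 to 0.46. Intervals of this width allow a difference as large as several of the SAH differences. These 3 comparisons share mice, and the Sham against Naive contrast is also the test of whether the SAH effect differs by the control used.

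**Figure D4:**
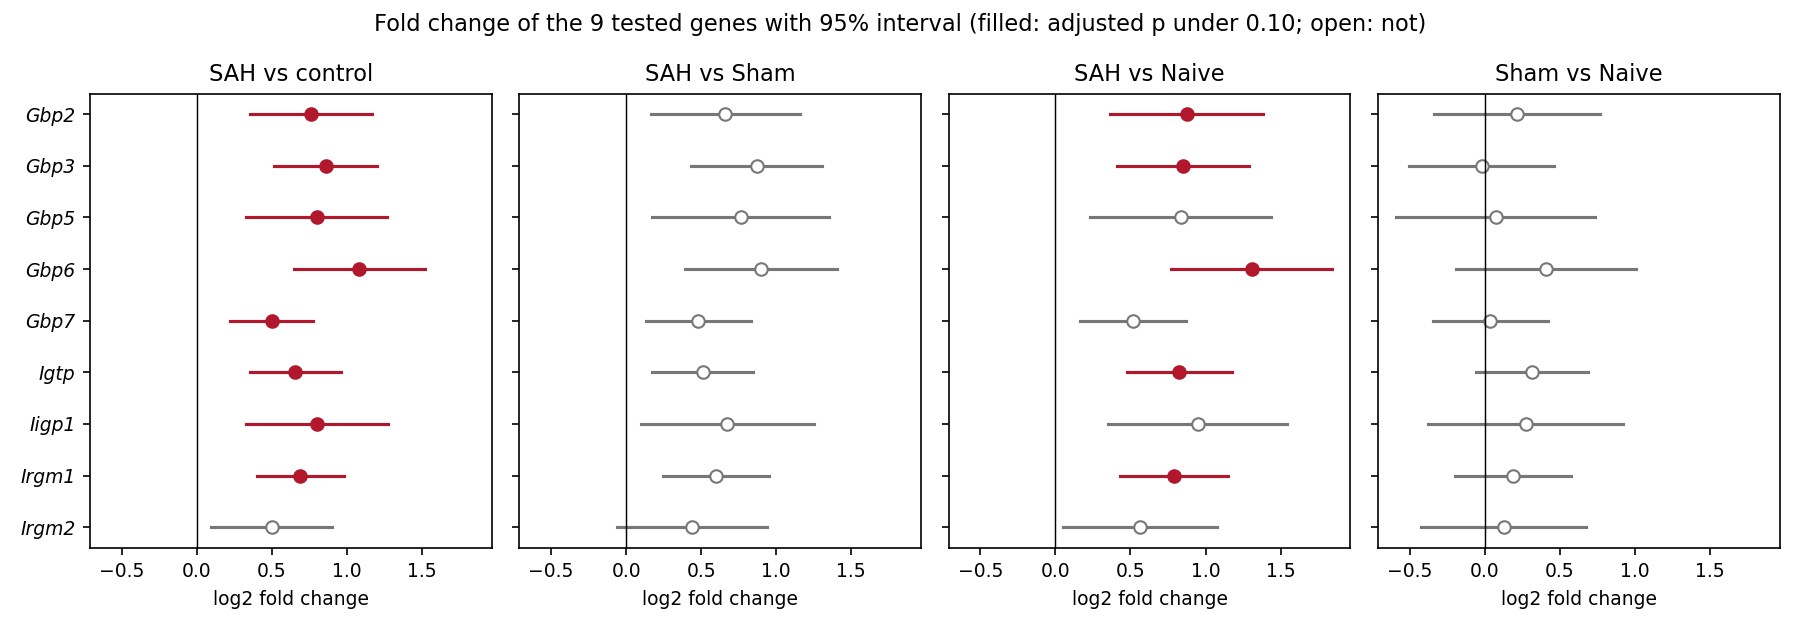
Points are the log2 fold changes of the 9 tested genes and lines their 95% intervals, in 1 panel per comparison on a shared axis. Filled red points were called at an edgeR adjusted p under 0.10, which holds for 8, 0, 5 and 0 genes from left to right.

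Compared per kb of exon, the order of the members was nearly the same in both conditions. In control mice Irgm1 led with 3.64 ± 0.327 CPM per kb (SD, n = 6) and no overlap with the next. Gbp2 (1.32 ± 0.254), Igtp (1.29 ± 0.195), Gbp3 (1.17 ± 0.0840), Irgm2 (0.951 ± 0.145) and Gbp7 (0.910 ± 0.0754) followed, each overlapping its neighbour in range. Iigp1 (0.601 ± 0.117) and Gbp5 (0.597 ± 0.126) were not separable, and Gbp6 (0.205 ± 0.0375) and Tgtp2 (0.0368 ± 0.0176) were each apart below. In SAH mice Irgm1 had 5.90 ± 1.44 CPM per kb (SD, n = 4) and Gbp2 2.25 ± 0.638, and Gbp3, at 2.11 ± 0.611, had passed Igtp, at 2.05 ± 0.269, with overlapping ranges. The low levels per kb of Gbp6 and Tgtp2 are those of the genes with few unique windows.

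Of 19 other gene names of the 2 families, 14 were in the count files and 6 were tested. None of the 6 was called by edgeR, and DESeq2 called 1, Gbp9. At an unadjusted p under 0.05 there were 4, with Gbp9, Gm12250 and 9930111J21Rik1 higher and Irgq lower. With 1 mouse left out edgeR called 0 to 3 of the list higher against control. The 3 came without SAH mouse 3 (Gbp9, Gm12250 and Gm4951), and 1 came without SAH mouse 2 (9930111J21Rik1). Gbp9 had 48 to 114 counts in SAH and 45 to 68 in control (log2 fold change 0.58, standard error 0.17, edgeR adjusted p = 0.101). Gbp4 had 0.59 with a standard error of 0.33 (edgeR adjusted p = 0.392), with 25, 38, 15 and 76 counts in SAH mice 1 to 4 and 18 to 32 in control mice. In CPM the highest SAH mouse, mouse 4, had 3.04 and the highest control mouse 1.49, and without mouse 4 the log2 fold change of Gbp4 was 0.070. Gm12250 stood at 1.06 from 2 to 19 counts (edgeR adjusted p = 0.137), and was called against control without the 3 mice high in choroid plexus genes (edgeR adjusted p = 0.0475). Gm12250 was also called against Naive mice (edgeR adjusted p = 0.0776), but not by DESeq2 (adjusted p = 0.117) and in 1 of the 9 fits that tested it with 1 mouse left out, that without SAH mouse 3. Irgq, a distant and abundant relative that is not interferon-induced, stood at −0.14 (edgeR adjusted p = 0.176). Among other interferon-induced GTPases, Mx2 had a log2 fold change of 0.41 (edgeR adjusted p = 0.491), from 38 counts in SAH mouse 4 and 13 to 18 in the other SAH mice, and was at 0.0026 without mouse 4. Mx1 was kept out by the filter with all mice, with 7 to 17 counts in SAH and 1 to 7 in control. It passed without SAH mouse 3, the SAH mouse with its lowest count, and was then called higher against control, but not against Sham or Naive mice. No gene of this list was called without the 3 mice high in choroid plexus genes.

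The ligand was not measurable. Ifng had 0 to 2 counts in SAH and 0 to 1 in control, and Ifnb1, the type I ligand, had 0 in every mouse, where a count of 0 allows up to 3 counts per library (counting error only). Of the 7 receptors and kinases, 0 were called by edgeR or DESeq2 and 1, Ifngr2, had an unadjusted p under 0.05, with a log2 fold change of −0.14 (edgeR adjusted p = 0.274). The median of the list was −0.02. Of 7 tested transcription factors 3 rose against the 6 control mice, 0 were called against Sham alone (edgeR and DESeq2) and 1, Irf1, against Naive alone (DESeq2 2, and edgeR 0 to 3 with 1 mouse left out). Irf1, which drives GBP and IRG promoters, was 0.57 higher (standard error 0.12, edgeR adjusted p = 0.0193), and Irf8, a factor of microglia and other myeloid cells, was 0.49 higher (standard error 0.13, edgeR adjusted p = 0.0627). Nlrc5, the activator of MHC class I genes, was 1.04 higher (edgeR adjusted p = 0.0718). Against Sham the edgeR adjusted p was 0.213 for Irf1, 0.382 for Irf8 and 0.371 for Nlrc5. With 1 mouse left out, 1 to 4 factors were called against the 6 control mice, with 1 without SAH mouse 4, Sham mouse 5 or any Naive mouse. Irf1 was the 1 factor called without SAH mouse 4, and also without the 3 mice high in choroid plexus genes, where Nlrc5 was at 0.49 (edgeR adjusted p = 0.633). Irf9 stood at 0.37 (edgeR adjusted p = 0.215).

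Downstream of the same pathway, 7 of 9 tested targets outside the GTPases rose against the 6 control mice. Against Sham alone 2 were called, Cd74 and B2m (DESeq2 4). By edgeR this count was 0 without SAH mouse 4, any Sham mouse or any Naive mouse. Against Naive alone 3 were called, Cd74, B2m and Tap1 (DESeq2 5). With 1 mouse left out the counts ran from 0 to 3 against Sham and from 0 to 5 against Naive. Against the 6 control mice 4 were called without SAH mouse 4, and 4 without the 3 mice high in choroid plexus genes. Cd74, the invariant chain of MHC class II, was 1.71 higher on the log2 scale (standard error 0.26, edgeR adjusted p = 0.00440), with 41 to 148 counts in SAH and 20 to 50 in control. B2m, the light chain of MHC class I, rose by 0.84 (standard error 0.13, edgeR adjusted p = 0.00463), with a control mean of 76.7 CPM (SD 3.49, n = 6) and a SAH mean of 137.3 CPM (SD 38.1, n = 4). The immunoproteasome subunits Psmb8 and Psmb9 rose by 0.81 and 1.10, the peptide transporter genes Tap1 and Tap2 by 0.56 and 0.44, and the chemokine gene Cxcl10 by 1.36. Cd274 (0.46) and Psmb10 (0.18) were not called. Cxcl9, a chemokine gene known as a strict interferon gamma target, was kept out by the filter with 7, 4, 10 and 6 counts in the SAH mice. It had 0 counts in 5 control mice and 1 in the sixth.

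Of 5 inhibitors, Usp18, which blocks the type I receptor, rose by 1.70 (standard error 0.28, edgeR adjusted p = 0.00629), and Pias1 by 0.13 (edgeR adjusted p = 0.0916). Against Sham alone and against Naive alone, Usp18 was the 1 inhibitor called. With 1 mouse left out, its call against Sham (edgeR adjusted p = 0.0999) held in 2 of 10 fits, those without SAH mouse 2 or 3, and that against Naive in 9, while Pias1 was called against control in 2. Without the 3 mice high in choroid plexus genes the edgeR adjusted p of Usp18 against Sham was 0.327. Socs3 had 1.04 with a standard error of 0.37 (edgeR adjusted p = 0.166, called by DESeq2), with 33, 32, 89 and 31 counts in SAH mice 1 to 4 and 14 to 31 in control, and 0.40 without SAH mouse 3 (edgeR adjusted p = 0.531). Socs1 had −0.22 (edgeR adjusted p = 0.804). The machinery that GBPs and IRGs work with was not called by edgeR or DESeq2: 0 of 10 autophagy conjugation genes (median −0.03, 1 at an unadjusted p under 0.05), 0 of 6 inflammasome genes (median 0.22, 0 at that p) and 0 of 5 prenylation enzymes (median −0.07, 0 at that p).

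**Figure D5:**
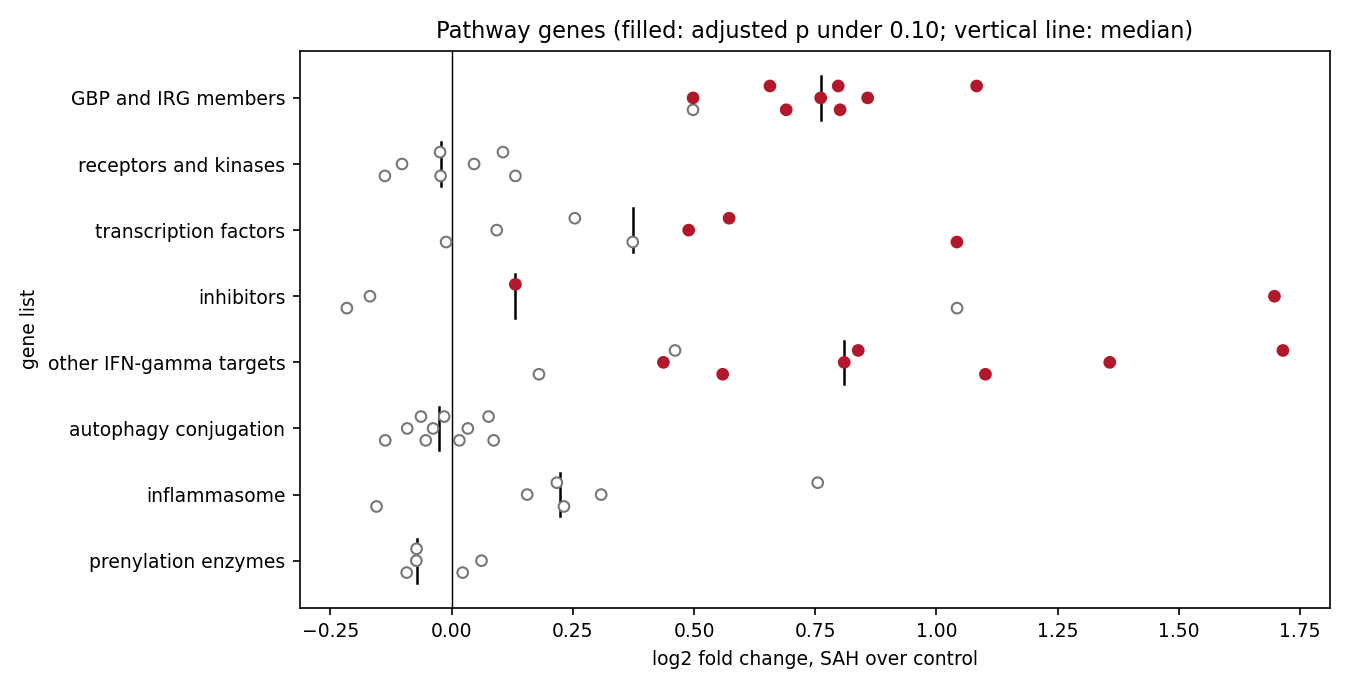
Points are genes, placed by their log2 fold change in SAH over control (horizontal axis) in rows by list, with a vertical line at the median of each. Filled red points were called at an edgeR adjusted p under 0.10: 8 of 9 members, 0 of 7 receptors and kinases, 3 of 7 transcription factors, 2 of 5 inhibitors, 7 of 9 other targets and 0 in the last 3 rows.

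The 8 genes whose log2 CPM most resembled the mean of the tested members over the 10 mice were Usp18 (Pearson r = 0.98), Ifit3 (0.97), Irf8 (0.97), Ifit1 (0.97), Oasl2 (0.96), Irf1 (0.96), Stat6 (0.96) and Eif2ak2 (0.95). The points share the split between SAH and control, and the list was chosen for its likeness. When the mean of each group was taken out first, 0 of these 8 stayed among the 8 most alike, although Usp18 kept an r of 0.93 and Irf8 of 0.93. Within the members, the r with the mean of the 9, each gene being part of that mean, ran from 0.83 for Irgm1 to 0.96 for Gbp3. With group means taken out it was 0.32 for Irgm1, 0.51 for Igtp and 0.63 to 0.92 for the other 7.

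Several cell type markers moved with SAH. Their calls against Sham alone rested on single mice, so each count is given with its range when 1 mouse was left out. Of 5 markers of border-associated macrophages, 4 were called higher (Mrc1, Cd163, F13a1, Pf4), 3 of them against Sham alone (0 to 3, and 0 without Sham mouse 5), and the summed level of the 5 was 17.1 to 21.2 CPM in SAH, 9.53 to 10.8 in Sham and 5.98 to 7.04 in Naive mice. Monocyte markers were kept out by the filter with all mice, but their sum was 0.556 to 1.79 CPM in SAH against 0.165 to 0.441 in Sham and 0.206 to 0.424 in Naive mice, mainly from Ccr2 with 2 to 32 counts in SAH. In SAH mice 1 to 4 the monocyte sum was 1.79, 1.14, 0.556 and 1.20 CPM, lowest in mouse 3 and highest in mouse 1. With all mice and no filter, Ccr2, a chemokine receptor of monocytes, was called higher against control (log2 fold change 2.45, edgeR adjusted p = 0.0177). It was also called against Naive mice (2.60, edgeR adjusted p = 0.0782), but not against Sham mice (2.32, edgeR adjusted p = 0.170). Ccr2 passed the filter without SAH mouse 3, the SAH mouse with its lowest count, 2. It was then called against control (2.78, edgeR adjusted p = 8.57e-04), Sham (2.66) and Naive mice (2.93). The same calls came without the 3 mice high in choroid plexus genes, which include SAH mouse 3. With only the mice of 2 groups it was called against neither Sham (edgeR adjusted p = 0.400) nor Naive mice (0.184). Of 6 microglia markers 2 were called higher, 0 against Sham alone (0 to 2) and 0 against control without SAH mouse 4, among them Csf1r by 0.29, while Tmem119 (0.08) and P2ry12 (−0.05) were not, and the sum of the 6 was 381.0 to 461.9 CPM in SAH against 355.9 to 399.0 in control, lowest in SAH mouse 2 and highest in SAH mouse 4. Endothelium had 3 of 6 higher, 1 against Sham alone (0 to 3, and 0 without SAH mouse 4 or any Sham mouse) and 1 against control without SAH mouse 4, with sums of 116.5 to 229.4 CPM in SAH and 103.8 to 143.9 in control, and SAH mouse 4 was highest. Gfap, raised in reactive astrocytes, was 1 of 6 astrocyte markers called and was 1.00 higher. It was also called against Sham alone, and in 3 of the 10 fits of that comparison with 1 mouse left out, those without SAH mouse 1, 2 or 3. The 5 oligodendrocyte markers were called lower, 4 of them against Sham alone (0 to 5, and 0 without SAH mouse 4 or any Sham mouse).

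Meningeal fibroblast markers were called higher in 5 of 6, and in 2 of 6 against Sham alone (0 to 5, with 5 without SAH mouse 3, 1 without SAH mouse 1 and 0 without any other mouse, 5 without the 3 mice high in choroid plexus genes, and 4 by DESeq2), with sums of 156.4, 170.6, 95.1 and 136.9 CPM in SAH mice 1 to 4 and 86.5 to 119.6 in control. Of 5 markers of pericytes and smooth muscle, the smooth muscle genes Acta2 and Myh11 were called higher and the pericyte genes Pdgfrb, Rgs5 and Kcnj8 were not, and 0 of the 5 were called against Sham alone (0 to 1, DESeq2 2). Choroid plexus markers were called in 0 of 7 (edgeR, 1 at an unadjusted p under 0.05, DESeq2 0), although their sum was 103.6 to 1226 CPM in SAH, 59.4 to 829.8 in Sham and 47.3 to 69.8 in Naive mice. Without Sham mouse 7 all 7 were called higher against control, and 0 without any other single mouse. Against Naive alone 1 was called, Ttr (edgeR adjusted p = 0.0881), and 0 to 5 with 1 mouse left out. Against Sham alone 0 were called. Lymphocyte markers had few counts. The 11 T and NK cell markers summed to between 9 and 27 counts in SAH and between 9 and 14 in control. Cd4 had the most, 3 to 16 counts in SAH, with 16 in mouse 4, and 7 to 10 in control. Cd8b1 had 0 to 3 counts in SAH and 0 in control, and Nkg7 0 to 3 and 0 to 2. The others, Cd3d, Cd3e, Cd3g, Cd8a, Gzma, Gzmb, Klrb1c and Ncr1, were at 2 or fewer in every mouse. The 4 B cell markers summed to 3 to 13 counts. Of the 5 red blood cell genes, the globins Hba-a1, Hba-a2, Hbb-b1 and Hbb-b2 had 0 counts in every mouse. The globins are near copies of each other and multiply mapped reads were not counted, so these zeros do not measure red blood cells. Alas2, the heme synthesis enzyme of red cell precursors, had 22 to 100 counts in SAH and 31 to 70 in control (log2 fold change 0.36, standard error 0.28, edgeR adjusted p = 0.546), and was at 0.0021 without SAH mouse 2. The part of these cell types in the rise of the GTPases was not tested.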

How the data were processed

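RNA from the hippocampus of 10 mice (4 SAH, 3 Sham, 3 Naive) was sequenced by the study as stranded, ribosomal RNA-depleted libraries of 50-base read pairs. The authors aligned reads to mm9 with STAR and counted read pairs per gene name with featureCounts 1.6.2 on the reverse strand, leaving out multiply mapped reads and pairs on more than 1 gene. The deposited values are raw counts, not normalized. Depth was 19743388 to 27254655 counts per mouse. The labels list mm9 and another build, and the file headers give mm9. For the members, 57 of 73 exon intervals equalled an exon of the NCBIM37 annotation at both ends.

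Counts were analysed here with edgeR 4.0.16 in R 4.3.3 (TMM, filterByExpr with minimum count 10 and minimum total 15, quasi-likelihood test, Benjamini-Hochberg over 14993 genes, threshold 0.10). SAH against pooled control was fitted with 2 groups, and the pairwise comparisons with 3 groups that share 1 estimate of the spread. A standard error is the log2 fold change over the square root of F. Log2 CPM used a prior count of 2. The fits were tested on simulated data. DESeq2 1.42.0, other normalizations and filters, a robust fit, an adjusted p under 0.05, other sets of control mice and each mouse left out were alternatives. The fit without the 3 mice high in choroid plexus genes was chosen after the data were seen. P-values measure the spread between mice.

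Every member is named, with genes of the pathway and marker lists and the 8 most alike by Pearson r. Some single genes of these lists are not reported here. The members and lists were chosen with earlier results of these data known. Windows of 50 exon bases were searched in mm9 for uniqueness. Sequences are RefSeq's (GRCm38.p6), and protein sequences were not used here.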

Additional observations from a re-analysis of the deposited data

Results flagged for a closer look

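SAH mouse 4 stood apart in Gbp7, with 9.63 CPM against 6.22 to 6.67 CPM in the other 3 SAH mice, a gap that took up most of the range of the group. It was 1 of 20 sets of values checked, each the SAH or the control mice for 1 member, and chance marks about 1 in 20 of them. The same mouse was highest of the SAH mice for 7 of the 10 members.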

How the results depend on the processing

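For SAH against control, the 8 calls among the members were 4 at an adjusted p under 0.05, 4 without the 3 mice high in choroid plexus genes and 3 to 9 with 1 mouse left out. DESeq2 and the other normalizations, filters and fits gave 8. Over all genes, the 470 higher were 257 without the 3 mice, 277 at an adjusted p under 0.05 and 223 to 686 with 1 mouse left out. The 231 lower were 398 by DESeq2, 73 without the 3 mice, 92 at an adjusted p under 0.05 and 85 to 407 with 1 mouse left out. Against Sham, the 0 members became 2 by DESeq2, 1 with no filter, 1 without the 3 mice and 0 to 3 with 1 mouse left out. Against Naive, the 5 members became 7 by DESeq2, 6 with no filter, 4 with at least 10 counts in every mouse, 3 with only the mice of both groups, 3 at an adjusted p under 0.05 and 0 to 8 with 1 mouse left out. Over all genes, DESeq2 called 222 higher against Sham, where edgeR called 82, and 457 against Naive, where edgeR called 298. Where no count over all genes is given, a move in the members cannot be told from a move in all genes. For Tgtp2 the difference was 0.47 to 0.90 with 1 mouse left out (exact permutation p from 0.0476, without SAH mouse 3, to 0.262). Between Sham and Naive, where no member was called, leaving out 1 mouse gave Gbp3 −0.093 to 0.038, Gbp5 −0.13 to 0.23, Gbp7 −0.024 to 0.13 and Irgm2 −0.020 to 0.26, and Gbp5 was −0.13 without the 3 mice, so their directions are not settled. The fold changes of the 9 members over control and over either control group stayed positive in each fit run. The cause of these shifts was not tested. Counts were lowest for Tgtp2 (1 to 12) and Gbp6 (14 to 58), where unique exon windows were also fewest. No paired analysis was possible because the groups share no animal number.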
